A study of Mus musculus with 9 samples.

Results

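The cells described here were 1713 of the 8495 cells in 3 libraries of a single-cell RNA-seq survey of mouse brain, or 20.2% of them (exact binomial 95% interval 19.3 to 21.0) and 5.79% of all 29571 cells in 9 libraries. A cell was selected when it held at least 1 molecule of Slc17a7 and at least 1 of Snap25, and none of Gad1 or Gad2. These 4 genes chose the cells, so their levels are given as a description only. Single-cell suspensions were made from brainstem, cortex and hypothalamus of wild-type C57BL/6 mice of 9 to 11 weeks. The mice had slept normally (NS), had been sleep deprived for 12 h (SD), or had been deprived for 12 h and then left to recover (RS, for which the labels give 24 h in one place and 12 h in another), and all tissue was taken at zeitgeber time 12. Each suspension pooled the same region of 3 mice, which makes 1 library for each of 3 regions and 3 sleep groups. No genetic change or drug was used in any group.

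The table of counts names each cell by its barcode and a library code, and the codes match none of the sample labels. The libraries are therefore given the numbers 1 to 9 as their columns follow each other in that table, and no region or sleep group was given to libraries 1 to 3. The cells are called selected cells throughout, with no brain area in the name, and no comparison of sleep groups was made. Each library is a single sample, so no p-value is given for any difference. Intervals are exact 95% Poisson limits for a sum of molecules and exact binomial (Clopper-Pearson) limits for a share of cells, and they cover counting error only.

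Glutamatergic neurons load glutamate into synaptic vesicles with a vesicular transporter. Slc17a7 encodes the transporter VGLUT1, which is the main form in the neocortex, hippocampus and cerebellum, whereas Slc17a6 encodes VGLUT2, the main form in the thalamus, hypothalamus and brainstem. Snap25 encodes a membrane protein of the vesicle fusion machinery that neurons of all kinds use, and Gad1 and Gad2 encode the enzymes that make GABA. In forebrain excitatory neurons, neurogranin (Nrgn) binds calmodulin at the postsynaptic side and CaMKII (Camk2a) is one of the most abundant postsynaptic kinases.

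On the mouse GRCm38 build, Slc17a7 lies on the plus strand at chr7:45163949-45176142, Snap25 on the plus strand at chr2:136713453-136782428, Gad1 on the plus strand at chr2:70553072-70602014 and Gad2 on the plus strand at chr2:22622205-22693874. Nrgn lies on the minus strand at chr9:37544492-37552904. All of them are protein-coding genes, and these are whole gene spans of the GENCODE M21 annotation.

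Libraries 1, 2 and 3 gave 338 of 2575 cells (13.1%, 11.8 to 14.5), 525 of 3175 cells (16.5%, 15.3 to 17.9) and 850 of 2745 cells (31.0%, 29.2 to 32.7). Library 3 had the highest share, and its interval lay apart from those of the other libraries. It was also the deepest, with 3671604 molecules (unique molecular identifiers, UMIs) in all, against 1522766 in library 1 and 1933812 in library 2. The median selected cell held 1357.5, 1163 and 2075.5 UMIs in the 3 libraries. A rule that asks for a molecule of each of 2 genes takes in more cells where more molecules were read, and the part of depth in the share was not tested. In libraries 4 to 9 the same rule found 2, 0, 0, 7, 9 and 14 cells, or 32 of 21076 (0.152%).

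**Figure D1:**
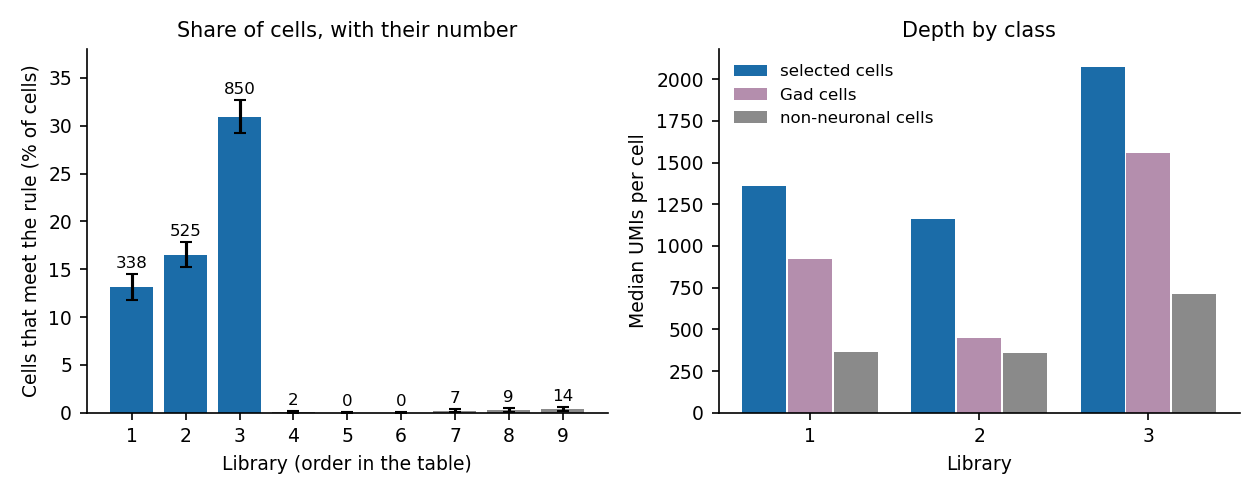
Percent of cells in each of the 9 libraries that met the rule, with exact binomial 95% intervals and the number of cells above each bar (left), and median UMIs per cell of the selected, Gad and non-neuronal cells of libraries 1 to 3 (right). The 3 libraries used here stood at 13.1%, 16.5% and 31.0% and the highest of the others at 0.377%, and in library 3 the median selected cell held 2075.5 UMIs.

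Most selected cells passed the rule by more than a single molecule. The median selected cell held 2 UMIs of Slc17a7 (highest 37) and 5 UMIs of Snap25 (highest 61). Just inside the rule, 572 cells (33.4%) held 1 UMI of Slc17a7, 315 (18.4%) held 1 UMI of Snap25 and 150 (8.76%) held 1 of each. Just outside it, 478 cells had Slc17a7 but no Snap25 or Gad molecule, 721 had Snap25 but neither Slc17a7 nor Gad, and 13 had Slc17a7, Snap25 and a Gad gene. The cells just outside were shallower where they lacked a molecule, with medians of 584 and 739 UMIs against 1578 in the selected cells, and the 13 cells with a Gad molecule had a median of 1912. Nrgn stood at 1603 UMIs per 1000000 UMIs (CPM) in the cells without Snap25, 3633 in those without Slc17a7, and 2663 in the selected cells with 1 molecule of each rule gene. CPM here comes from UMIs counted at the 3′ end of a transcript, so it does not depend on gene length.

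The selected cells held 33.0%, 35.5% and 54.9% of the UMIs of libraries 1 to 3, and mitochondrial genes took 4.98%, 4.81% and 4.77% of the UMIs in them. The non-neuronal cells of the same libraries, as defined below, were at 8.93%, 10.1% and 9.33%. Barcodes of 71 selected cells (4.14%) were also found in another library, against 3.74% of all cells. In 2 cases a barcode was a selected cell in 2 libraries. Across 9330 genes with at least 30 UMIs in the selected cells, log-scaled CPM of the 3 libraries correlated at r of 0.962 to 0.975, given as a description across genes, which are not independent.

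The selected cells were set beside 3 other classes chosen from the same table by counts of the same few genes. Gad cells (56 cells of libraries 1 to 3, 65327 UMIs, median 939) held Snap25 and a Gad gene but no Slc17a7. Non-neuronal cells (5480 cells of libraries 1 to 3, median 425 UMIs) held none of the 4 rule genes, so they can include shallow neurons. Slc17a6 cells (173 cells of libraries 4 to 9, 261374 UMIs, median 1129) held Snap25 and Slc17a6 but no Slc17a7 or Gad. These names stand for the rule and not for a cell type. A fold is the ratio of 2 CPM values after 10 CPM is added to each, which understates the change of low genes that have UMIs in both classes. For a gene with no UMI in one class such a fold is no bound, and "at least" marks a ratio to 3 UMIs over that class instead, with nothing added. Against non-neuronal cells a gene was called when it differed by at least 2-fold in each of the 3 libraries. Against the Gad and Slc17a6 cells, which are few, it was called when the pooled CPM differed by at least 2-fold and the 95% intervals did not overlap. That second rule was chosen after the values had been seen, because the rule set first for Gad cells, 2-fold in each library, called many unchanged genes higher in simulated counts of this depth. In the same simulation the pooled rule missed most 4-fold changes and still called some unchanged genes, more of them lower than higher. Because all classes come from the same counts, the calls describe these cells and test nothing.

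Of 11538 genes compared with non-neuronal cells, 2203 (19.1%) were called higher and 1204 (10.4%) lower. Of 9415 compared with Gad cells, 316 (3.36%) were called higher and 334 (3.55%) lower. Of 9625 compared with Slc17a6 cells, 839 (8.72%) were called higher and 463 (4.81%) lower. The rules set first gave 1135 (12.1%) higher and 143 (1.52%) lower than Gad cells, and 1095 (11.4%) higher and 486 (5.05%) lower than Slc17a6 cells, at 2-fold on pooled CPM with no condition on the intervals. Counts against Gad cells and Slc17a6 cells below are from the pooled rule, and its shares are their background. List counts moved between the rules: higher than Gad cells by the rule set first were 7 of the forebrain transcription factors, 10 immediate early genes, 4 calcium signalling genes and 2 metabotropic receptors, against 7, 6, 8 and 0 by the pooled rule. For Gad cells the shares differ by more than 1.5 times between the rules, and the median fold over all compared genes was 1.24, 1.06 and 1.08. Against Gad cells, 1405 of the compared genes had no UMI in them, and the median was 0.962 with those at their bound and 1.60 by library under the rule set first. The Slc17a6 cells also differ in library. Genes of pituitary hormones summed to 31480 CPM in them against 60.5 to 71.5 CPM in the selected cells, and Gh, which encodes growth hormone, took 25.3% to 32.1% of all UMIs in libraries 4 to 6. With the Slc17a6 cells of libraries 7 to 9 alone, a choice made after seeing the data, 87 of the 109 listed genes called by the pooled rule kept their call, 20 lost it and 2 turned to the opposite direction, and 21 of the other listed genes were called. By list, the immediate early genes went from 4 higher and 1 lower to 6 and 0, the calcium signalling genes from 10 and 2 to 11 and 3, the clock genes from 5 and 1 to 6 and 1, the scaffold genes from 13 and 0 to 12 and 0, the upper list from 4 and 0 to 5 and 0, the ion channels from 5 and 1 to 4 and 2, the pan-neuronal genes from 3 and 0 to 2 and 0, the metabotropic receptors from 1 and 1 to 0 and 1, and the glutamate supply genes from 0 and 1 to 1 and 1. For the pooled rule with those libraries alone no share of all genes is given, so these list counts have no background. Some other values against the Slc17a6 cells of libraries 7 to 9 are given below.

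Markers of forebrain glutamatergic neurons were high in the selected cells. Nrgn stood at 3959, 4628 and 4919 CPM in the selected cells of libraries 1 to 3, and library 1 was the lowest. It was at 276 CPM (163 to 435) in Gad cells, 559 (472 to 657) in Slc17a6 cells and 233 (215 to 251) in non-neuronal cells. The fold over non-neuronal cells was 15.6 to 21.7 across libraries. Camk2a stood at 1266, 1437 and 1407 CPM in the selected cells and at 260 CPM (152 to 417) in Gad cells, 187 (139 to 248) in Slc17a6 cells and 168 (153 to 183) in non-neuronal cells. For both genes the 3 libraries were close to each other and far from each of the other classes.

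Depth was equalised by drawing 500 UMIs from each cell, which kept 1615 selected cells (302, 463 and 850), 44 Gad cells, 2208 non-neuronal cells and 159 Slc17a6 cells. Nrgn was then found in 80.7% of the selected cells, 15.9% of Gad cells, 9.42% of non-neuronal cells and 12.6% of Slc17a6 cells. Without that step it was found in 91.7% of the selected cells. Camk2a was found in 50.8% of the thinned selected cells and in 7.52% of the non-neuronal cells. The non-neuronal cells were chosen to hold no rule gene, so any cell that caught free RNA of such a gene was left out. They can also include shallow neurons, so their levels are no clean background for free neuronal RNA. Slc17a6 was at 17.5 CPM in the selected cells and was found in 2.92% of them before thinning, and 0.80% after it. Slc17a8, which encodes the third vesicular glutamate transporter, had 1 UMI in all of the selected cells.

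**Figure D2:**
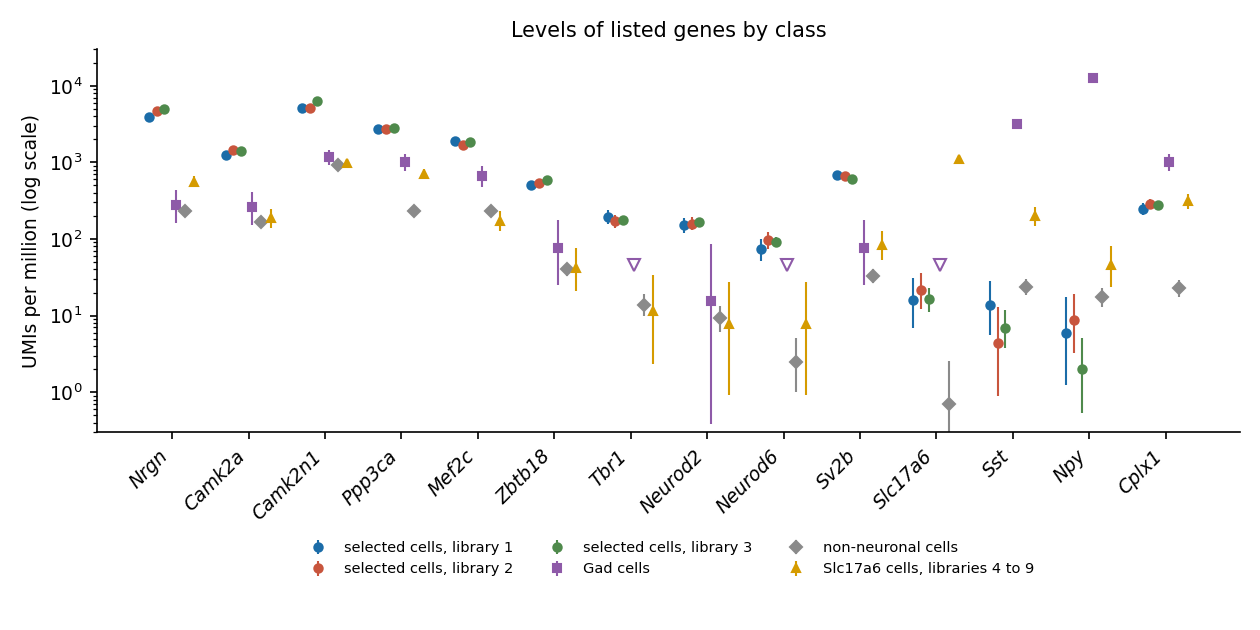
CPM (log axis) of marker and transcription factor genes in the selected cells of each library and in the 3 other classes, with exact 95% Poisson intervals and open triangles at 3 UMIs of the class where it had none. The library points lie close together, with Nrgn at 3959 to 4919 CPM against 233 to 559 in the other classes.

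Molecules of most other cell types were present below their level in non-neuronal cells. The 8 astrocyte markers summed to 1230, 1346 and 983 CPM in the selected cells and to 12242, 14503 and 12742 CPM in non-neuronal cells. Slc1a2, which encodes a glutamate transporter, gave the most of it, with 504 CPM in the selected cells. The 6 microglia markers summed to 207, 165 and 86.3 CPM against 4210, 2159 and 1523, and the 5 erythroid markers to 1318, 475 and 761 CPM against 14710, 9446 and 10586. A marker of the astrocyte list was found in 74.4% of the selected cells. At least 2 different markers of some other cell class were found in 689 selected cells (40.2%), of which 604 had 2 or more of the astrocyte list, 70 of the erythroid list and 37 of the microglia list. The 689 cells were deeper, with medians of 1876, 1516 and 2610 UMIs in libraries 1 to 3 against 1106, 980 and 1704 in the rest. The part of depth in their share was not tested. No doublet was called or removed, and whether those cells held free RNA or a second cell was not tested. The endothelial list summed to 47.7 to 126 CPM, and the choroid plexus gene Ttr had no UMI.

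Most transcription factors of forebrain excitatory neurons were called higher than in each of the other classes. Of 12 such genes, 10 were called higher than in non-neuronal cells, 7 higher than in Gad cells and 12 higher than in Slc17a6 cells, and none was called lower. The median folds were 6.61, 6.74 and 5.74. Of the 12 genes, 6 had no UMI in Gad cells and 3 had none in Slc17a6 cells. For those genes the 2-fold condition rests on the 10 CPM added. With them set at their bound, which takes 3 UMIs over the whole class, the medians against Gad and Slc17a6 cells were 1.95 and 5.74. The Gad median at the bound is under 2-fold. Against the Slc17a6 cells of libraries 7 to 9, 10 of the 12 were called higher, and Lhx2 (2.21-fold) and Bhlhe22 (2.23-fold) were not. Tbr1, Zbtb18 and Mef2c were 10.9-, 7.77- and 5.90-fold higher than in those cells.

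Tbr1, a T-box factor of early-born cortical excitatory neurons, stood at 195, 169 and 176 CPM in the selected cells. It had no UMI in Gad cells, which made it at least 3.86-fold higher, and was at 11.5 CPM in Slc17a6 cells and 13.8 CPM in non-neuronal cells. The NeuroD factors of excitatory neuron differentiation were all low in the other classes. Neurod2 was at 151, 159 and 167 CPM, and Neurod6 at 73.5, 96.3 and 91.3 CPM. Neurod6 had no UMI in Gad cells (at least 1.95-fold higher), and Neurod2 stood at 15.3 CPM there (1 UMI) and 7.65 CPM in Slc17a6 cells.

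The most abundant member of the list was Mef2c, a MADS-box factor that limits synapse number, at 1882, 1701 and 1843 CPM. It was 2.74-fold higher than in Gad cells (658 CPM) and 10.0-fold higher than in Slc17a6 cells (172 CPM). Zbtb18, a zinc-finger repressor, was at 505, 545 and 590 CPM, against 76.5, 42.1 and 40.1 CPM in Gad, Slc17a6 and non-neuronal cells.

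Other factors of the list were less selective. Bcl11a stood at 216 CPM in the selected cells and 138 CPM in Gad cells, where it was not called. Lhx2 stood at 59.6 CPM against 95.5 CPM in non-neuronal cells.

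**Figure D3:**
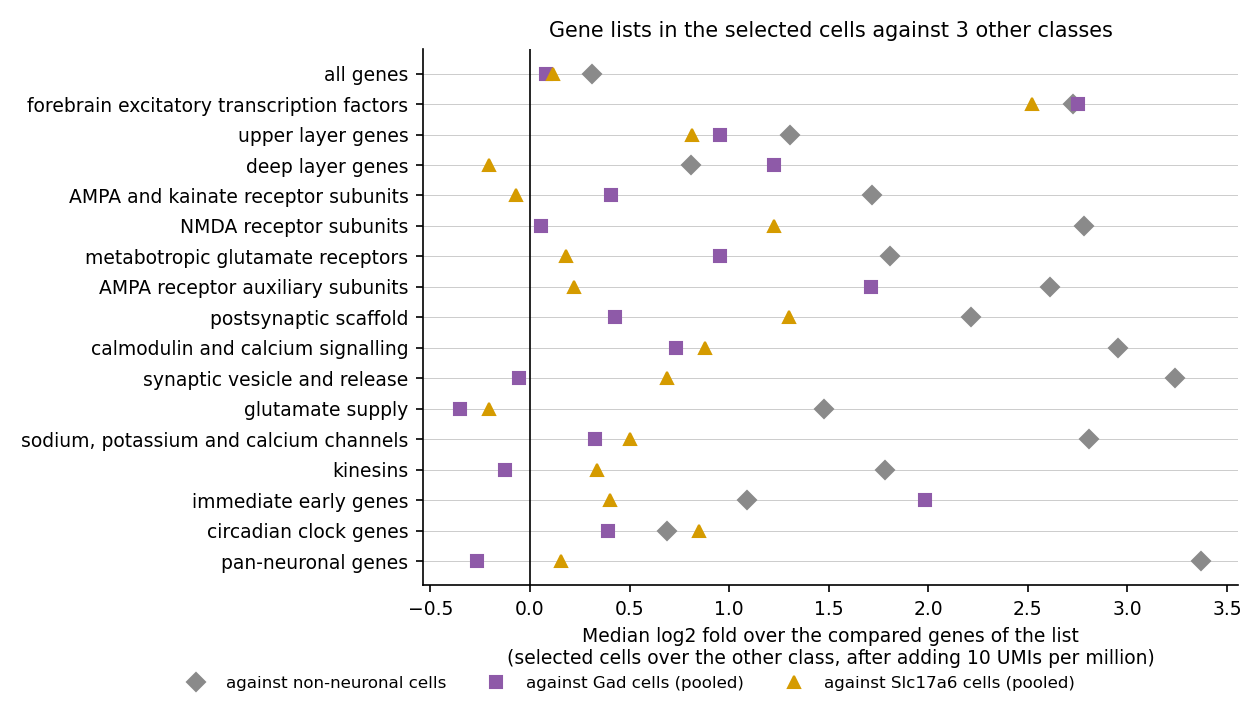
Median log2 fold of each gene list in the selected cells over non-neuronal cells (diamonds), Gad cells (squares) and Slc17a6 cells (triangles), after 10 CPM is added, with the median over all compared genes in the top row. The transcription factor list stands at 2.52 to 2.75 for all 3 classes, but 6 of its 12 genes had no UMI in Gad cells and at their bound its median fold there is 1.95, while the synaptic vesicle list stands at 3.24, -0.06 and 0.69.

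Genes that mark cortical layers were used to ask how the selected cells vary among themselves. Of the 10 genes of the upper list, 9 were compared with non-neuronal cells and 6 of them called higher. Cux2, a homeobox factor of layers 2 to 4, stood at 201, 168 and 217 CPM and was 3.00-fold higher than in Gad cells and 8.45-fold higher than in Slc17a6 cells (chr5:121856366-122050102, minus strand). Lamp5, a lysosome-associated membrane protein, was the highest of the list at 397, 454 and 457 CPM. It was 7.19-fold higher than in Slc17a6 cells and close to its level in Gad cells (321 CPM). Calb1 (calbindin) and Rasgrf2 (a Ras exchange factor) were at 296 and 281 CPM, and against the Gad and Slc17a6 cells neither was called, though Rasgrf2 was 3.04-fold higher and called against the Slc17a6 cells of libraries 7 to 9 (85.7 CPM). Rorb, a nuclear receptor of layer 4, stood at 63.6, 93.3 and 103 CPM against 216, 197 and 184 CPM in non-neuronal cells and was not called. It was 3.34-fold higher and called against the Slc17a6 cells of libraries 7 to 9, which held 3 UMIs of it.

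Genes of the deep list were called in both directions. Of 10 compared with Gad cells, 1 was called higher and 1 lower. Of 11 compared with non-neuronal cells 5 were called higher, and of 12 compared with Slc17a6 cells 3 were called higher and 4 lower. Against libraries 7 to 9 alone it was 2 higher and 3 lower, with Etv1 and Crym no longer called and Rprm turned from lower to 4.06-fold higher. Pcp4, a calmodulin-binding peptide, led the list at 332, 613 and 493 CPM, with library 1 the lowest. It was 9.00-fold higher than in Gad cells and 3.32-fold lower than in Slc17a6 cells (1660 CPM). Foxp2, a forkhead factor of layer 6, was at 5.62 CPM in the selected cells against 222 in Slc17a6 cells (350 in those of libraries 7 to 9), and Fezf2, which specifies subcerebral projection neurons, was at 14.98 CPM against 18.1 in non-neuronal cells. Tle4, a corepressor of layer 6, was at 31.5 CPM against 78.8 in non-neuronal cells.

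At 500 UMIs a cell, 819 of 1615 selected cells (50.7%, 48.2 to 53.2) held a UMI of the upper list, 308 (19.1%, 17.2 to 21.1) one of the deep list, 93 (5.76%) both and 581 (36.0%) neither. The upper share had overlapping intervals in the 3 libraries, at 51.7%, 49.2% and 51.2%. The deep share was 15.2% (11.4 to 19.8), 26.1% (22.2 to 30.4) and 16.6% (14.1 to 19.3), and library 2 stood above the others. Pcp4 alone was found in 10.7% of the thinned cells. With all UMIs kept, both lists were found together in 26.04% of cells.

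The 2 lists were found in partly separate cells. A deep-list UMI was present in 11.4% of the thinned cells with an upper-list UMI and in 27.01% of those without. The order was the same in each library, at 5.77% against 25.3%, 15.8% against 36.2%, and 11.0% against 22.4%. The 7 layer genes found in at least 50 thinned cells give 21 pairs, a choice made after seeing the data. Pcp4 was found in 3.39% of cells with Cux2 (1.25 to 7.23) and 11.5% without (9.94 to 13.3). It was in 1.03% of cells with Calb1 against 12.0% without, 4.33% with Lamp5 against 12.1%, and 5.14% with Rasgrf2 against 11.5%. Rorb went the other way, with Pcp4 in 20.3% of its cells (11.8 to 31.2) against 10.2% (8.72 to 11.8). Among the upper genes, Lamp5 was found in 26.2% of cells with Rasgrf2 (20.4 to 32.6) against 17.4% without (15.5 to 19.5), and in the other 14 of the 15 pairs among upper genes the intervals overlapped. With Pcp4 they lay apart in 5 of 6 pairs and overlapped for Cux1.

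**Figure D4:**
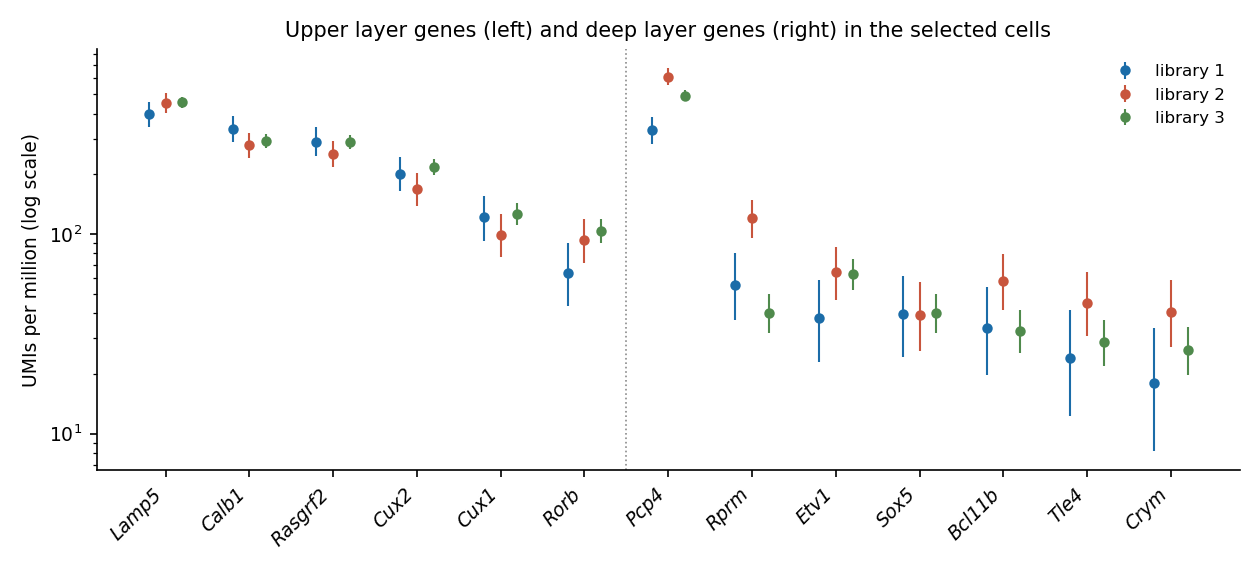
CPM (log axis) of upper-list genes (left of the dotted line) and deep-list genes (right) in the selected cells of libraries 1 to 3, with exact 95% Poisson intervals. Lamp5 (397, 454 and 457 CPM) stands highest on the left, while on the right Pcp4 (332, 613 and 493 CPM) and Rprm (55.6, 120 and 40.2 CPM) are highest in library 2.

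Most receptors for glutamate were called higher than in non-neuronal cells. None of the AMPA, kainate, NMDA or metabotropic receptor genes was called higher than in Gad cells, where 3.36% of all genes were. With so few genes a count of 0 cannot be told from that share. The rule set first called 2 metabotropic receptors higher. Of 8 AMPA and kainate receptor subunits compared with non-neuronal cells 6 were called higher, and of 7 compared with Gad cells none was called higher and 2 were called lower. Gria2, the AMPA subunit that limits calcium entry, was the highest at 1598, 1663 and 1597 CPM, against 949 in Gad cells, 1335 in Slc17a6 cells and 584 in non-neuronal cells. Gria1 was lower than in Gad cells, at 149 against 337 CPM, as was Grik2, a kainate receptor subunit, at 22.8 against 214 CPM. Gria3 was 4.46-fold higher than in Slc17a6 cells.

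Of 5 NMDA receptor subunits compared with non-neuronal cells, 3 were called higher and 1 lower. Of 4 compared with Gad cells none was called higher and 1 lower, and of 4 compared with Slc17a6 cells 2 were called higher and 1 lower. Grin3a was the one lower than in both, at 9.36 CPM against 122 and 84.2. Grin1, the obligatory subunit, was at 497, 499 and 497 CPM, and Grin2b at 765, 719 and 742 CPM. Neither was called against Gad cells (413 and 520 CPM), while Grin2b was 3.96-fold and Grin2a 3.21-fold higher than in Slc17a6 cells. Grin2c was the member with more in non-neuronal cells, at 123 against 4.99 CPM. Of the metabotropic receptors, Grm5 was at 415, 366 and 374 CPM, with 459 CPM in Gad cells and 333 in Slc17a6 cells, and no member of the list was called in either direction against Gad cells. Of 7 members, 4 were called higher than in non-neuronal cells.

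Of 5 AMPA receptor partners 4 were called higher than in non-neuronal cells. Of 4 compared with Gad cells 1 was called higher, and so was 1 of 4 compared with Slc17a6 cells. Cacng3, a transmembrane AMPA receptor regulatory protein, stood at 213, 213 and 208 CPM. It was 5.42-fold higher than in Gad cells (30.6 CPM), 10.2-fold higher than in Slc17a6 cells (11.5 CPM) and 9.91- to 12.8-fold higher than in non-neuronal cells. Its relative Cacng2 was at 138 CPM against 276 in Gad cells and was not called.

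Some postsynaptic scaffold genes were called higher than in each of the other classes. The numbers of calls cannot be compared between classes, which differ in UMIs and in rule. Of 22 members 19 were called higher than in non-neuronal cells, and of 21 compared, 3 were higher than in Gad cells and 13 higher than in Slc17a6 cells, with none lower. Dlgap1 and Shank1, which link receptors to the cytoskeleton, were at 573 and 423 CPM, 4.67- and 3.17-fold higher than in Slc17a6 cells. Dlg4, which encodes PSD-95, was at 433, 457 and 400 CPM, 2.25-fold higher than in Slc17a6 cells (3.88-fold with libraries 7 to 9 alone) and close to the 429 CPM of Gad cells. The 3 genes above Gad cells were Baiap2 (422 against 15.3 CPM, which is 1 UMI), Homer1 (295 against 91.8) and Dlgap4 (195 against 61.2). Baiap2 encodes IRSp53, which shapes actin in spines, and Homer1 binds group I metabotropic receptors. Homer1 stood at 199, 290 and 321 CPM in the 3 libraries and did not pass the rule for a difference between libraries given below.

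The calmodulin and calcium signalling list was the most abundant, summing to 31033, 31935 and 33233 CPM in the selected cells. Of 24 members 21 were called higher than in non-neuronal cells, 8 higher than in Gad cells with 1 lower, and 10 higher than in Slc17a6 cells with 2 lower. Camk2n1, an inhibitor of CaMKII, was at 5058, 5201 and 6413 CPM, 5.01-fold higher than in Gad cells and 5.95-fold higher than in Slc17a6 cells. Calm2, a calmodulin gene, was at 5525, 5324 and 5462 CPM, against 2587 in Gad cells, and was called higher than in them. Ppp3ca, the catalytic subunit of the phosphatase calcineurin, was at 2746, 2768 and 2851 CPM, 2.77- and 3.94-fold higher. Camk4, a nuclear calmodulin kinase, was 15.8- to 17.7-fold higher than in non-neuronal cells. The exceptions were Rcan2, a calcineurin regulator (84.6 CPM against 383 in Gad cells and 218 in Slc17a6 cells), and Gap43, a growth cone protein (224 CPM against 582 in Slc17a6 cells).

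Genes of the presynaptic release machinery were abundant in all 3 neuronal classes. All 22 were called higher than in non-neuronal cells, whereas against Gad cells 3 were called higher and 3 lower, and the median fold was 0.96. Against Slc17a6 cells 8 were called higher and 1 lower, with a median fold of 1.61. The list summed to 7139 CPM in Slc17a6 cells and to 12962 to 13578 CPM in the selected cells. Snap25, a rule gene that is not in the list, was at 3725 CPM, and Syt1, the calcium sensor of release, was at 1689, 1676 and 1684 CPM with 2863 CPM in Gad cells. Members of the same gene family stood on opposite sides. Sv2b was 7.48-fold higher than in Gad cells (638 against 76.5 CPM), whereas Sv2a was lower (381 against 1255 CPM). Cplx1, a complexin, was lower than in Gad cells (276 against 1010 CPM), and Cplx2 stood at 1034 against 612 CPM and was not called. Stx1a was higher (445 against 107 CPM).

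Of 7 genes that supply glutamate, 5 were called higher than in non-neuronal cells. Against Gad cells 2 were called lower, and against Slc17a6 cells 1. None was called higher than in Gad cells or in the Slc17a6 cells of libraries 4 to 9. Against those of libraries 7 to 9 alone, 1 was called higher. Of all genes 3.36% and 8.72% were called higher than Gad and Slc17a6 cells, so 0 of 7 cannot be told from background. Slc38a1, a glutamine carrier, was at 79.0 CPM against 444 in Gad cells and 207 in Slc17a6 cells.

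Ion channel genes were called higher than in non-neuronal cells in 22 of 23 cases, higher than in Gad cells in 3 and lower in 1. Scn2a1, a sodium channel pore subunit, was at 556 CPM. The gene with no UMI in Gad cells was Kcnv1, a silent potassium channel subunit, at 101, 147 and 107 CPM and at least 2.49-fold higher. Kcnc1, the fast potassium channel Kv3.1 of fast-spiking cells, was lower, at 118 against 367 CPM. Of 14 kinesins and light chains, 10 were called higher than in non-neuronal cells, none higher and 1 (Kif5a, 232 against 490 CPM) lower than in Gad cells, and 1 (Kif21b) higher than in Slc17a6 cells. Of all genes 3.55% were called lower than Gad cells and 8.72% higher than Slc17a6 cells. With so few genes a count of 1 cannot be told from either share. Against libraries 7 to 9 alone, Kif21b was not called and Kif3b was. Of 15 pan-neuronal genes all were called higher than in non-neuronal cells, Snap25 by the rule that chose both classes, and 2 (Nefl and Nefm, neurofilament subunits) were higher than in Gad cells. Meg3, a long noncoding RNA of neurons, was at 5415, 4960 and 5231 CPM against 6781 in Gad cells and 8245 in Slc17a6 cells.

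Immediate early genes, which neurons switch on within minutes of activity, were called higher for some members. Of 18 compared, 9 were called higher than in non-neuronal cells, 6 higher than in Gad cells with none lower, and 4 higher than in Slc17a6 cells with 1 lower. Egr1, a zinc-finger factor, was the highest at 523, 572 and 572 CPM, with 76.5 CPM in Gad cells, 134 in Slc17a6 cells (71.4 in those of libraries 7 to 9) and 37.6 in non-neuronal cells. It was found in 23.4% of the thinned selected cells. Nr4a1, Arc and Egr4 were at 157, 141 and 133 CPM and were called higher than in all 3 classes. Arc, which controls AMPA receptor uptake, stood at 3.83 CPM in Slc17a6 cells.

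Other immediate early genes were not called higher than in non-neuronal cells. Fos was at 171, 89.0 and 76.4 CPM against 115, 117 and 99.6 CPM in non-neuronal cells. Jun stood at 65.2 against 129 CPM, and Btg2, an antiproliferative factor, at 129, 62.7 and 27.3 against 96.0, 113 and 76.7 CPM. Bdnf, which encodes a neurotrophin, was higher than in Gad cells, at 97.1 against 15.3 CPM, and at 80.3 CPM in Slc17a6 cells. The 15.3 CPM in Gad cells is 1 UMI, with limits of 0.388 to 85.3 CPM.

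Of 14 circadian clock genes, 3 were called higher than in non-neuronal cells (Clock, Arntl and Hlf), where 19.1% of all genes were. With so few genes a count of 3 cannot be told from that share. None was called in either direction against Gad cells. Against Slc17a6 cells 5 were called higher and 1 lower, beside 8.72% and 4.81% of all genes. Hlf, a PAR-domain factor of clock output, was the highest at 292, 349 and 318 CPM, against 245 CPM in Gad cells and 115 in Slc17a6 cells. Per1, a core repressor, was at 145, 134 and 168 CPM and Dbp at 215, 182 and 179 CPM. No clock gene was called between the libraries by the rule given below. Of all genes 1.18% were, so 0 of 14 cannot be told from that share.

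Genes of GABAergic interneurons were low in the selected cells, as far as the rule had not already set them. Of 10 such genes compared with Gad cells, 9 were called lower. Gad1 and Gad2, which the rule set at 0, are among them. Npy (neuropeptide Y) was at 4.06 CPM against 12736 in Gad cells, 907-fold lower, and Sst (somatostatin, chr16:23889573-23890958, minus strand) at 7.49 against 3215 CPM, 184-fold lower. Erbb4 stood at 0.936 against 582 CPM and Slc32a1, the vesicular GABA transporter, at 1.25 against 444 CPM. Reln (16.5 against 903 CPM) and Cnr1 (74.3 against 612 CPM) were also lower. Cck, the peptide cholecystokinin, was the exception, at 2236, 1890 and 1824 CPM against 184 in Gad cells (9.87-fold higher), 130 in Slc17a6 cells and 83.1 in non-neuronal cells.

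Outside the lists, some of the genes called higher than in Gad cells had no UMI in them, so their order among the genes with UMIs is not known. Ptk2b, a calcium-activated tyrosine kinase, stood at 464 CPM, at least 10.1-fold higher. Nrn1, a neurite growth protein, stood at 379 CPM, at least 8.26-fold higher, and Igfbp6, an IGF-binding protein, at 272 CPM, at least 5.93-fold higher. Arpp21, a cAMP-regulated phosphoprotein, had UMIs in both classes, at 827 against 45.9 CPM. On the other side were Kit, a receptor tyrosine kinase (1.87 against 1010 CPM), and Ptprm, a receptor tyrosine phosphatase (9.99 against 352 CPM).

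Slc30a3, the transporter that fills synaptic vesicles with zinc, was among the genes that stood highest over Slc17a6 cells, at 274 CPM with no UMI in them, at least 23.8-fold higher, and at 61.2 CPM in Gad cells. Itpka, a kinase of dendritic spines, was at 448 against 7.65 CPM, 25.97-fold higher. Ddn (dendrin), Icam5 (telencephalin) and Kcnh3, a potassium channel of the forebrain, had no UMI in the Slc17a6 cells and were at least 16.5-, 14.7- and 12.1-fold higher. Genes far lower in the selected cells were Tcf7l2, a thalamic factor (1.25 against 505 CPM, and 928 CPM in the Slc17a6 cells of libraries 7 to 9), Calb2 (calretinin, no UMI in the selected cells against 436 CPM) and Nnat (12.8 against 1002 CPM, and 371 CPM in the Slc17a6 cells of libraries 7 to 9). Against the Slc17a6 cells of libraries 7 to 9, Slc30a3 and Ddn also had no UMI in the other class, and Itpka was 26.7-fold higher.

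Differences between the 3 libraries were described gene by gene. Between the highest and the lowest library, 110 of 9330 genes (1.18%) differed by at least 2-fold with the 95% intervals apart. With intervals that leave out 0.1% in place of 5%, a limit added after the data were seen, 26 did. In non-neuronal cells 375 of 8847 genes (4.24%) passed the first rule. The highest and lowest were libraries 3 and 1 for 31 genes, 2 and 1 for 27, 1 and 3 for 26, 2 and 3 for 12, 1 and 2 for 11, and 3 and 2 for 3. The region and sleep group of these libraries are not known here, so sleep, region and library cannot be told apart. In 53 of the 110 genes the CPM was higher in non-neuronal cells than in the selected cells, and 13 also differed by at least 2-fold between the same libraries in non-neuronal cells.

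Immediate early genes and deep-list genes were among those that differed. Of 18 immediate early genes compared, 4 passed, and of 10 deep-list genes, 2. Btg2 was at 129 CPM (99.7 to 165), 62.7 (45.4 to 84.5) and 27.3 (20.6 to 35.5) in libraries 1, 2 and 3, with 96.0, 113 and 76.7 CPM in non-neuronal cells. Npas4, a neuronal activity factor, was at 59.6, 32.1 and 17.4 CPM, and at most 2.49 CPM in non-neuronal cells of every library. Fos (171, 89.0 and 76.4 CPM) and Nr4a2 (69.6, 27.7 and 24.3 CPM) were likewise highest in library 1. Egr1 and Arc, the more abundant members, did not pass.

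Library 2 was the highest for another group. Lmo3, a LIM-only cofactor, was at 43.7, 165 and 53.1 CPM, and at 7.48, 3.41 and 0 CPM in non-neuronal cells. Rprm, a p53 target that also marks layer 6 cells, was at 55.6, 120 and 40.2 CPM. Mt1, a metallothionein, was at 475, 817 and 345 CPM in the selected cells and at 9619, 13892 and 10431 CPM in non-neuronal cells. Tsc22d3, a glucocorticoid-induced factor, was at 43.7, 117 and 71.4 CPM against 406, 953 and 742 CPM. For Mt1 and Tsc22d3 both classes were highest in library 2, and Tsc22d3 was lowest in library 1 in both.

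Genes of other cells also differed between libraries. C1qb, a complement gene of microglia, was at 127, 83.1 and 30.8 CPM in the selected cells and at 1732, 850 and 575 CPM in non-neuronal cells. Hbb-bs, a haemoglobin gene, was at 535, 179 and 346 CPM against 5980, 4011 and 4633. Both classes kept the same order of libraries for each of these genes. Ctgf, of the deep list, had the largest ratio, at 47.7, 4.38 and 5.46 CPM, from 24, 3 and 11 UMIs. It was found in 0.992% of the selected cells. In non-neuronal cells it stood at 28.7, 60.2 and 52.9 CPM, so library 1 was the lowest there and the highest in the selected cells.

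Which genes passed between libraries changed when the cells with markers of other classes were left out. Without the 689 cells, 195, 347 and 482 cells were left, with median depths of 1106, 980 and 1704 UMIs. The number of genes that passed was then 111, of which 32 were among the 110. Of the 78 that no longer passed, 33 fell under 30 UMIs, 29 had a ratio under 2 and 16 had overlapping intervals. The part of the left-out cells in the change was not tested. Fos, Btg2, Npas4, Lmo3, Rprm and C1qb were among those that still passed, with Btg2 at 161, 71.3 and 24.8 CPM and Lmo3 at 38.1, 181 and 63.1 CPM. Mt1 (364, 552 and 272 CPM, a ratio of 1.99), Tsc22d3 (38.1, 81.5 and 55.8 CPM, a ratio of 1.902), and Nr4a2 no longer did. Ctgf kept a ratio of 2.34 but fell to 14 UMIs, under the minimum of 30.

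**Figure D5:**
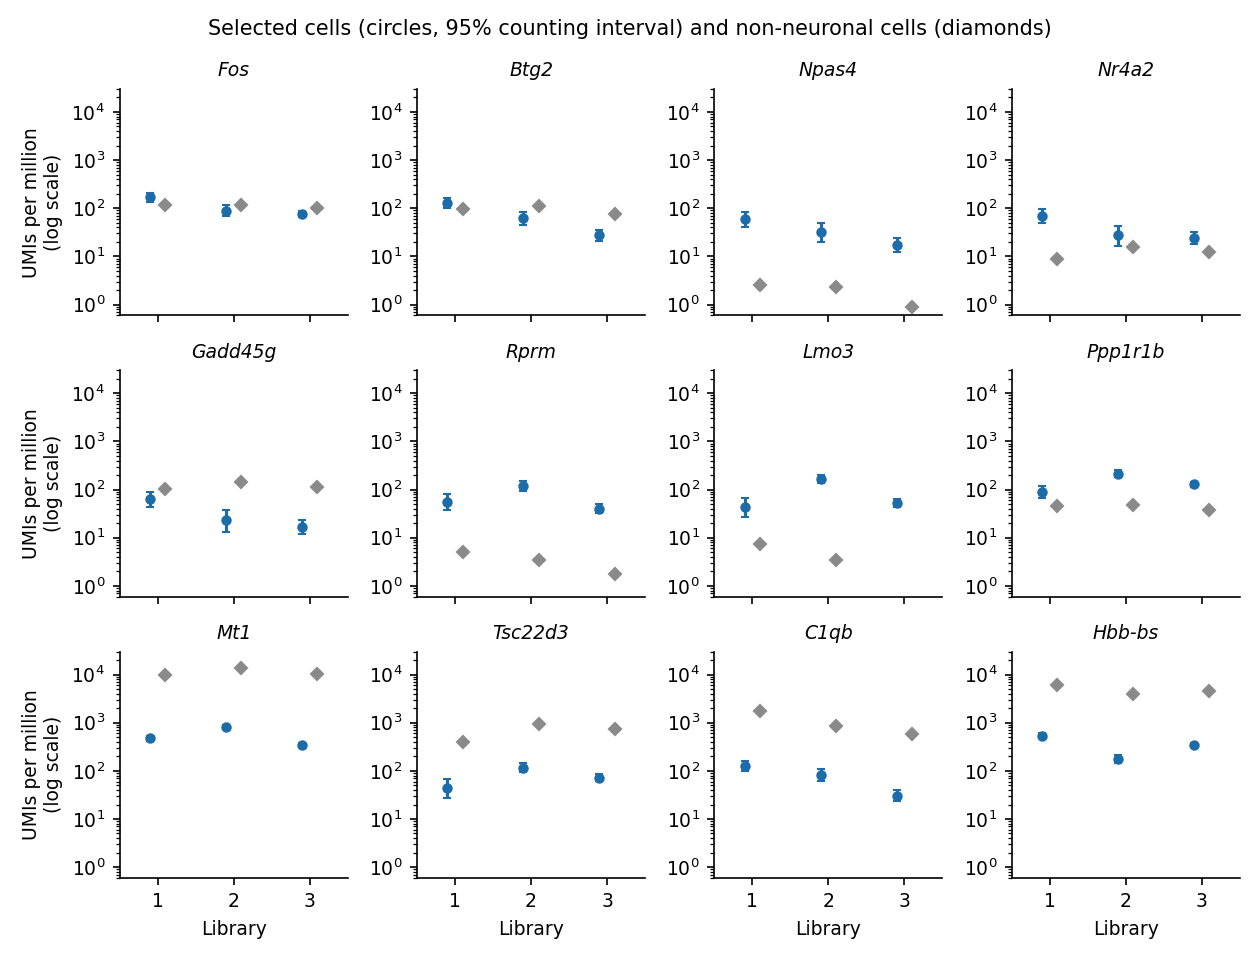
CPM (log axis) of 12 genes in the selected cells (circles, with exact 95% Poisson intervals) and the non-neuronal cells (diamonds, without intervals) of libraries 1 to 3. Fos, Btg2 and Npas4 are highest in library 1, Lmo3, Rprm, Mt1 and Tsc22d3 in library 2, and for Mt1 (345 to 817 against 9619 to 13892 CPM) and C1qb the non-neuronal cells are far above, while Lmo3 in the non-neuronal cells of library 3 is 0 and not drawn.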

How the data were processed

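The authors deposited 1 table of UMI counts, whole numbers per gene and cell with no normalization, from Cell Ranger 2.2.0 filtered output of 10x Chromium version 2 libraries aligned to GRCm38. The annotation release is not given in the sources used here, and R 3.5.3 is named in the submitters' processing notes. Cells came from papain-dissociated tissue passed over myelin removal beads, which limits the cells that were kept. The table holds 18634 genes and 29571 cells, and every column of counts was used. The selected cells and the 34 gene lists were chosen with earlier results of these data known.

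Counts were summed per library and class and scaled to 1000000 UMIs (CPM). Genes with at least 30 UMIs over both classes were compared, with 10 CPM added, at 2-fold. Against Gad and Slc17a6 cells the pooled rule given in the report replaced the rule set first after the data had been seen. The genes named were the rule genes and markers, up to 6 of each list by UMIs and all of a list of 10 or fewer, the 12 at each end against the other classes and the 15 with the largest ratio between libraries. Other genes named were picked from the same lists after their values had been seen, as were the extra genes from the pooled rule. Thinning drew 500 UMIs per cell with a fixed seed (7). Intervals are exact at 95%. Folds against a class with no UMI were bounded with 3 counts over the class. Library totals were 1522766 to 3671604 UMIs, and 98 selected cells held under 500 UMIs. Scripts ran in Python 3.11.15 with numpy 2.4.6, scipy 1.17.1, pandas 2.3.3 and matplotlib 3.10.9, and the call rules against Gad and non-neuronal cells and between libraries were tested on simulated data. Alternatives left out each library in turn, changed the added CPM, the minimum count, the depth of cells, the rule and the comparison class. No clustering, doublet calling or test between sleep groups was done. Some genes that the naming rule picked are not reported here.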

Additional observations from a re-analysis of the deposited data

Results flagged for a closer look

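The rule for the selected cells also picked out 32 cells in libraries 4 to 9, which the report does not use. Of these, 30 came from libraries 7 to 9, with a median of 805.5 UMIs. Nrgn had no UMI in those 30 cells, which allows up to 3 UMIs or 99.7 CPM, against 4706 CPM in the selected cells. Camk2a had 1 UMI and Neurod6 none. Slc17a6 was found in 9 of the 30 cells, against 2.92% of the selected cells. Mitochondrial genes took 38.5%, 17.9% and 26.02% of their UMIs in libraries 7, 8 and 9, against 4.77% to 4.98% in the selected cells. The cause was not tested.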

How the results depend on the processing

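Of 133 values computed under another setting, 95 kept within their limit (1.5 times for a count, counting error for a level) and 38 did not. With each library left out in turn, Nrgn ranged from 4345 to 4845 CPM, the genes higher than Gad cells by the first rule from 1600 to 1792 and lower from 293 to 312, the genes lower than Slc17a6 cells from 320 to 463, and the genes that differed between libraries from 17 to 67 (17 without library 1, 67 without library 2 and 31 without library 3, against 110). The number of selected cells was 1141 at 2 or more Slc17a7 UMIs and 1024 without cells holding 2 or more markers of another class, which moved the upper-layer share to 53.7%. Camk2a was at 1436 CPM without the deepest 5% of cells, 1325 in cells of at least 1000 UMIs, 1494 without cells with other markers, 1603 as a mean over cells and 1462 with mitochondrial and haemoglobin genes out of the totals. Nrgn was at 4841 CPM in cells of at least 1000 UMIs, 4323 as a mean over cells and 4948 without those genes in the totals. Against Gad cells, 498 genes were higher and 78 lower at a minimum of 100 UMIs, 374 and 412 on pooled CPM with intervals apart at any fold, which was tried first, and 316 and 334 with a 2-fold change as well, both added after seeing the data. Against Slc17a6 cells, 1764 genes were higher with libraries 7 to 9 only (added after seeing the data, 921 of the 1095 shared), 1815 higher and 799 lower with 1 CPM added, and 200 and 982 lower at 100 UMIs and with no minimum. Against non-neuronal cells, 542 genes were lower in cells of at least 1000 UMIs and 723 against microglia-marked cells (added later). Between libraries, 177 genes differed with 1 CPM added, 57 at 100 UMIs and 26 with the stricter intervals. The cause was not tested, though a higher minimum tests fewer genes. No paired analysis was possible because each group has 1 library and the columns carry no replicate number. The 65327 UMIs of the Gad cells limit every fold against them: a gene with no UMI there was bounded at 3 UMIs, or 45.9 CPM.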
